A study of Danio rerio with 6 samples.

Results

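The cytosolic ribosomal protein genes were described in RNA-seq libraries of cardiac endothelial cells from regenerating adult zebrafish hearts. Members were chosen by name alone, as genes whose upper-cased name is RPL, RPS or RPLP followed by a number, or RPSA, FAUA or FAUB, leaving out the S6 kinases (RPS6K). This gave 83 of 32520 gene IDs, of which 47 have a large subunit name and 35 a small subunit name. Another 1, rps19bp1, is named for a binding partner of RPS19 and is no subunit protein. The subunit was read from the name alone, also for paralogues such as RPL7L1 and RPL22L1, which were not tested. Most names in the table used here are in human style, and 4 names, RPL5 and RPS26 among them, were held by a pair of IDs each. The rule did not take in FAU, RPSA2, rps27.1 and rps27.2, whose names do not match it.

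In the DNK group, fish of strain Tu carried ubi:loxp-DsRed-stop-loxp-DN-xBrg1, together with kdrl:CreER and the reporter kdrl:eGFP. CreER, once activated by 4-HT (4-hydroxytamoxifen), removes the stop cassette, so that kdrl-expressing cells make a dominant-negative Xenopus Brg1. Brg1 is the motor subunit of SWI/SNF complexes, which remodel chromatin. The CtrlK group carried the same silent transgene and reporter but no kdrl:CreER, per the treatment protocol, which gives 3 days of 4-HT before ventricular resection for both groups, whereas another label calls these fish untreated and the design text calls them wild-type siblings. The effect of the dominant-negative Brg1 and that of Cre, or of 4-HT if CtrlK fish had none, cannot be told apart. GFP-positive cells were sorted from ventricles of about 15 hearts at 7 days after resection, and each group had 3 libraries. Whether these came from separate pools of fish is not stated, so the p-values below measure the spread between libraries, which may be technical.

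Ribosomes are built from a large and a small subunit, each of ribosomal RNA and many proteins, in which nearly every protein is present once. The large subunit forms peptide bonds and passes the growing chain through an exit tunnel, and the small subunit binds the mRNA and reads its codons. In vertebrates, mRNAs of ribosomal proteins and of several elongation factors begin with a tract of pyrimidines through which mTOR signalling sets their translation.

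Gene counts came to 174371 to 227373 per library, and 98.5 to 98.9% of each table's total stood in rows that name no gene, of which the row for reads under the quality minimum held 58.0 to 59.2% of the total. Whether the counting settings suit these amplified libraries cannot be judged from the tables, and every value below rests on the small assigned part. At this depth 3 counts in a library correspond to 13.2 to 17.2 CPM (counts scaled to 1000000 gene counts). The endothelial label was checked on 16 marker IDs, which all had counts. Their summed level was 2359 to 2699 normalized CPM in DNK libraries and 1552 to 2001 in CtrlK libraries. No row counted the Xenopus transgene, which left the group labels unchecked. Summed markers of myeloid cells (20 of 23 IDs with counts, with MFAP4, lyz and mmp13a at 0) were 1604 to 1770 CPM in DNK and 678 to 1263 in CtrlK, and those of fibroblasts and mural cells (17 of 17 IDs with counts) 1732 to 1933 in DNK and 1224 to 1413 in CtrlK. Lymphoid markers (11 of 12 IDs with counts, cd79a at 0) were lower, at 148 to 218 CPM in DNK and 371 to 497 in CtrlK. Cardiomyocyte markers (21 of 23 IDs with counts, TNNT2 and actc1b at 0) summed to 3240 to 3790 CPM in DNK and 2484 to 3308 in CtrlK, more than the endothelial markers in every library. Their groups overlapped, as did those of thrombocyte markers (8 of 8 IDs with counts, 407 to 613 CPM in DNK and 494 to 864 in CtrlK) and erythroid markers (8 of 10 IDs with counts, hbaa2 and hbae1.1 at 0, 89.1 to 153 CPM in DNK and 93.1 to 121 in CtrlK). Of 10 tested cardiomyocyte genes 1, atp2a2a, rose in DNK (adjusted p = 0.0453 by edgeR), where 4.72% of all tested genes rose. So did 1 of 9 tested endothelial genes, 2 of 9 of fibroblasts and mural cells, and 0 of 6 myeloid genes. With 20.7, 22.3 and 8.74 CPM in CtrlK, atp2a2a met the minimum of counts needed for a test only through its DNK libraries. The 1 tested lymphoid gene was called lower, as were 2.4% of all tested genes. The part of these lists in the results below was not tested, and fewer cells of a type cannot be told apart from less RNA per cell. The marker lists differ in size and CPM are not scaled to transcript length, so their sums do not rank the cell types by number.

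The counts were spread unevenly over the members. RPL6, a surface protein of the large subunit, held 34.4% of all member counts, RPL3, which reaches toward the site of peptide bond formation, held 10.7%, and RPS18, a protein of the small subunit head, held 9.78%. The 10 members with the most counts held 74.0%. At the other end, RPL26 and RPL9 had 0 counts in all 6 libraries, below the limit of 3 counts a library. In single libraries, 72, 71 and 71 of the 83 members had a count in DNK, against 68, 73 and 74 in CtrlK. These counts are not scaled to transcript length, so they do not rank the genes by molecules. Of the 83 members, 44 had enough counts to be tested (26 large and 18 small) and 39 did not (21 large, 17 small and rps19bp1).

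**Figure D1:**
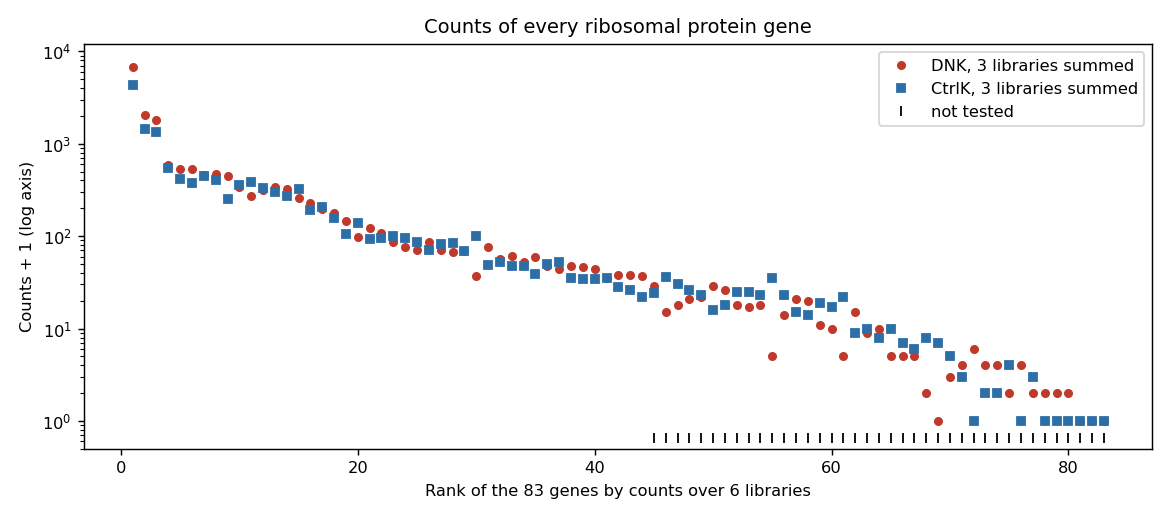
Counts plus 1 (log axis) of each of the 83 ribosomal protein genes, summed over 3 DNK libraries (red circles) and 3 CtrlK libraries (blue squares), in order of their counts over all 6 libraries. Ticks mark the 39 genes that were not tested, and the first gene, RPL6, stands above the rest.

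No tested ribosomal protein gene passed at an adjusted p below 0.05 between DNK and CtrlK (edgeR's quasi-likelihood test, Benjamini-Hochberg over 3792 genes), where 7.12% of all tested genes did, 4.72% higher and 2.4% lower in DNK. The members nevertheless leaned toward higher levels in DNK: 34 of 44 log2 fold changes were positive (77.3%), against 46.9% of all tested genes. The median of the members was 0.31, while the median of all tested genes was −0.07. The median of the members stayed positive under the other 4 scalings tried, at 0.088 to 0.32. RPL6, RPL4 and RPL3 of the large subunit and RPS18 of the small subunit were higher in every DNK library than in every CtrlK library without passing the test. Of the 44, 6 had an unadjusted p below 0.05 (13.6%), against 24.8% of all tested genes, and 0 were called by edgeR while DESeq2 and limma-voom called RPL6 alone. The filter needs a minimum of counts in 3 libraries, so these counts and medians hold for the 44 genes that passed it and not for the family.

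Groups that did not overlap were found for 12 of the 44 tested members (27.3%), against 30.8% of all tested genes. The DNK libraries were the higher ones for 11 of the 44 tested members, beside a background of 16.2% of all tested genes. The other member of the 12 was lower in DNK, 2.27% of the tested members beside a background of 14.6% of all tested genes. Among the 11 were RPL6, RPL4, RPL3, RPL5 (ENSDARG00000015862), RPL23A, RPLP0, RPL19, RPS18 and rps3.

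**Figure D2:**
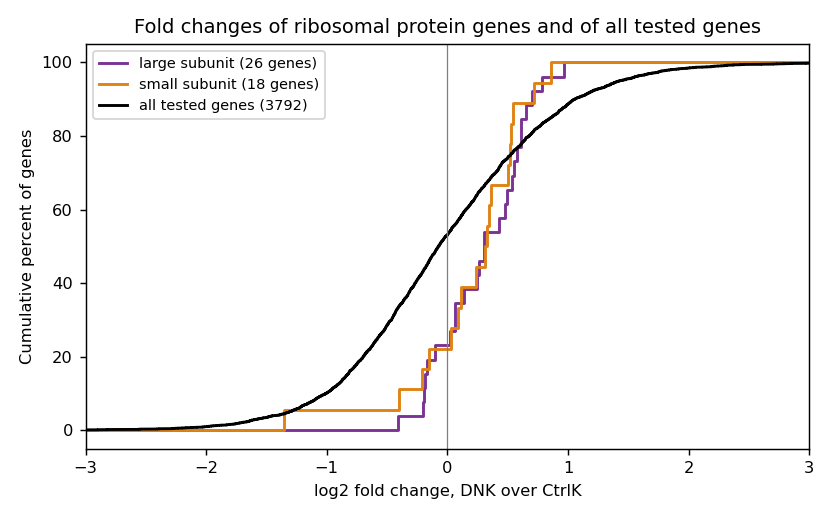
Cumulative percent of genes (vertical axis) against the log2 fold change of DNK over CtrlK, for 26 large subunit genes (purple), 18 small subunit genes (orange) and all 3792 tested genes (black). The curves of both subunits lie close together and rise more steeply than that of all genes, with medians of 0.30 for the large subunit, 0.32 for the small subunit and −0.07 for all genes.

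RPL6 had the smallest p of the tested members. Its normalized CPM was 12596, 10155 and 11074 in DNK replicates 1, 2 and 3, and 4817, 7316 and 7547 in CtrlK replicates 1, 2 and 3. The DNK libraries all lay above the CtrlK libraries, of which replicate 1 was well below the other two. The log2 fold change was 0.78 ± 0.24 (SE), with a 95% interval of 0.28 to 1.29 and an adjusted p of 0.0582, a 1.72-fold higher level. It passed with DESeq2 (adjusted p = 0.0447), with limma-voom (0.0343) and without CtrlK replicate 3 (0.0299), over a range of 0.0299 to 0.213 across the alternatives.

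RPL3 and RPL4 are core proteins of the large subunit, and RPL4 sends a long loop into the wall of the exit tunnel. RPL3 had 3456, 3331 and 3335 CPM in DNK and 2153, 2001 and 2482 in CtrlK. Its DNK libraries lay within a narrow band above all CtrlK libraries (log2 fold change 0.61 ± 0.23, 95% interval 0.13 to 1.09, adjusted p = 0.111). RPL4 had 657, 981 and 598 CPM in DNK and 300, 272 and 572 in CtrlK. CtrlK replicate 3 came close to the lowest DNK library. RPL4, with a log2 fold change of 0.96 ± 0.35 and an adjusted p of 0.101, passed only when CtrlK replicate 3 was left out among the alternatives tried (1.41, adjusted p = 0.0266).

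RPL5 and RPL11 form a particle with the 5S ribosomal RNA, and in mammalian cells the free particle binds Mdm2, the ubiquitin ligase of p53. Counts were kept for a pair of RPL5 IDs. RPL5 ENSDARG00000015862 had 860, 972 and 818 CPM in DNK and 445, 639 and 651 in CtrlK, with no overlap (log2 fold change 0.61 ± 0.28, adjusted p = 0.184). RPL5 ENSDARG00000020197 had 672, 512 and 498 CPM in DNK and 523, 572 and 564 in CtrlK, which overlapped (0.02 ± 0.28, 95% interval −0.58 to 0.62, adjusted p = 0.969). The log2 ratio of the first copy to the second was 0.66 ± 0.29 in DNK and 0.05 ± 0.24 in CtrlK (SD, n = 3 each), a difference of 0.62 that gave an exact two-sided permutation p of 0.1, the smallest that 3 against 3 libraries allow (0.2 adjusted over 2 pairs of copies). Reads of such copies can be split or dropped by the counting, so each value is uncertain. RPL11 had 84.0, 57.4 and 94.4 CPM in DNK and 56.9, 84.9 and 83.0 in CtrlK, which overlapped (0.06 ± 0.44). mdm2 averaged 159 ± 35.2 CPM in DNK and 229 ± 31.8 in CtrlK (SD, n = 3 each), and its change of −0.53 ± 0.34 on the log2 scale did not pass (adjusted p = 0.358 by edgeR).

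The other large subunit genes were grouped by place in the subunit. The stalk that recruits elongation factors had 2 tested genes, RPLP0, its scaffold, with a log2 fold change of 0.50 ± 0.43, and RPL12 of the stalk base with −0.11 ± 0.36. RPLP0 had 109, 101 and 89.1 CPM in DNK and 46.6, 75.9 and 87.4 in CtrlK, so the lowest DNK library was only just above the highest CtrlK library. Around the exit tunnel, RPL23A, a docking site for factors that meet the new chain, had 59.3, 67.0 and 57.7 CPM in DNK and 46.6, 44.7 and 26.2 in CtrlK (0.65 ± 0.48). Its neighbours were at 0.30 ± 0.34 for RPL19, −0.20 ± 0.39 for RPL31 and −0.17 ± 0.47 for RPL38, a protein needed in mice for translation of Hox mRNAs. RPL10, which joins the subunit late in its maturation, was at −0.18 ± 0.38, RPL10A of the mobile stalk at the tRNA exit at 0.14 ± 0.26, and RPL8 at 0.06 ± 0.30. Among abundant members RPL13A, which in human cells leaves the ribosome after interferon-gamma treatment, had 999, 699 and 970 CPM in DNK and 507, 719 and 686 in CtrlK (0.48 ± 0.28). RPL14 had 1023, 986 and 928 CPM in DNK and 528, 1050 and 896 in CtrlK, where CtrlK replicate 1 alone was low (0.25 ± 0.29). RPL18 was at 0.70 ± 0.57 with wide scatter, since CtrlK replicate 2 had 13.4 CPM and the other 5 libraries 76.6 to 136. The most negative large subunit values were those of rpl7a, RPL31 and RPL7, at −0.41 ± 0.36, −0.20 ± 0.39 and −0.20 ± 0.46. rpl7a had 257, 680 and 409 CPM in DNK and 461, 719 and 603 in CtrlK, and the groups overlapped.

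**Figure D3:**
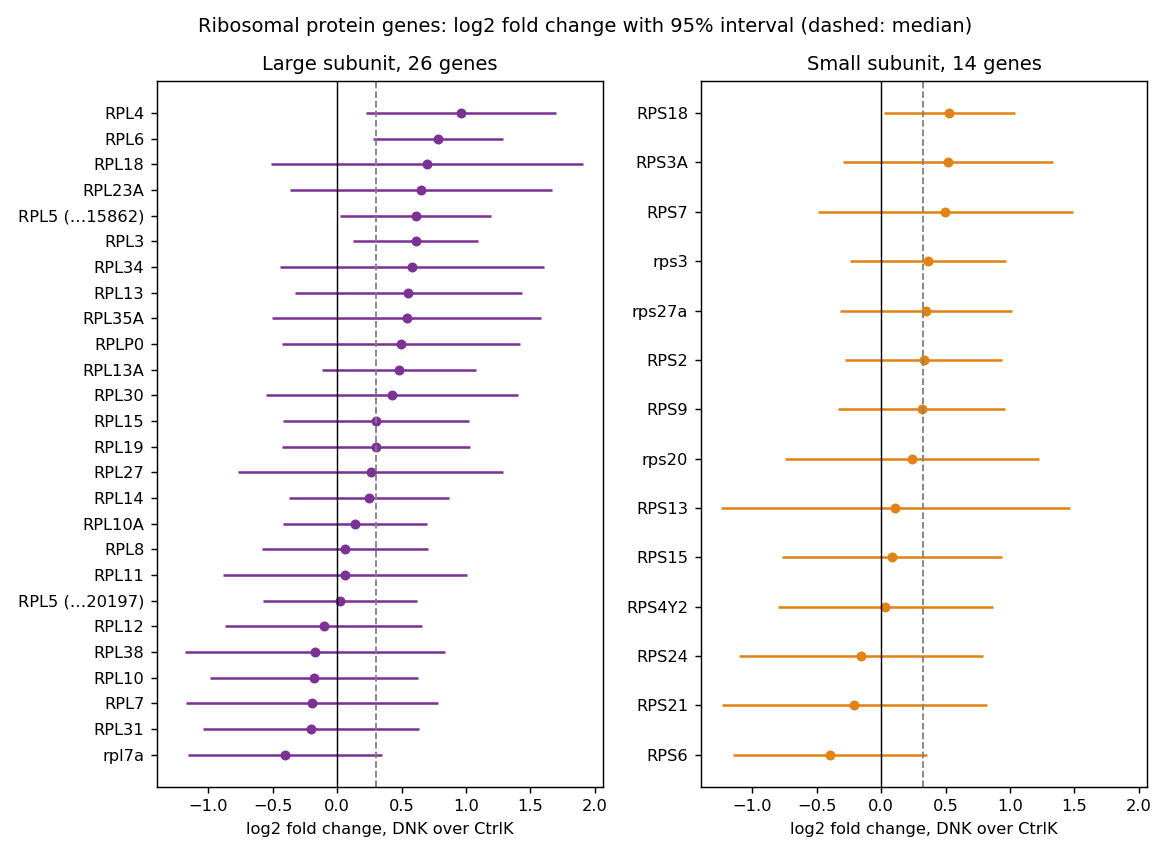
Log2 fold change of DNK over CtrlK (horizontal axis) with its 95% interval for 26 large subunit genes (left, purple) and 14 of the 18 tested small subunit genes (right, orange), with the median of all tested genes of the subunit as a dashed line. Intervals lie above 0 for 4 large subunit genes and 1 small subunit gene of those shown, and none of the genes passed after adjustment.

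In the small subunit, RPS18 had 3070, 2938 and 2968 CPM in DNK and 1764, 1903 and 2556 in CtrlK. All DNK libraries were higher, with little scatter among them (log2 fold change 0.53 ± 0.24, 95% interval 0.02 to 1.04, adjusted p = 0.184). RPS2, rps3 and RPS9, which line the channel where mRNA enters, were at 0.33 ± 0.29, 0.36 ± 0.28 and 0.31 ± 0.30. rps3 had 524, 570 and 509 CPM in DNK and 362, 406 and 476 in CtrlK, which did not overlap, while RPS2 and RPS9 overlapped. rps27a, made as a fusion with ubiquitin, had 336, 436 and 346 CPM in DNK and 228, 362 and 288 in CtrlK (0.35 ± 0.31), and RPS15, whose tail reaches the decoding site, was at 0.09 ± 0.40.

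RPS6, the substrate of S6 kinase and a long-used readout of mTOR signalling, had 148, 134 and 210 CPM in DNK and 274, 165 and 210 in CtrlK (−0.40 ± 0.35), which overlapped. RPS21 was at −0.21 ± 0.48 and RPS24 at −0.16 ± 0.45. RPS24 and RPS7 are among the genes mutated in Diamond-Blackfan anaemia, and RPS7 was at 0.50 ± 0.46. RPS3A was at 0.52 ± 0.38, rps20 at 0.24 ± 0.46 and RPS13 at 0.11 ± 0.63, the largest error among the tested members.

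**Figure D4:**
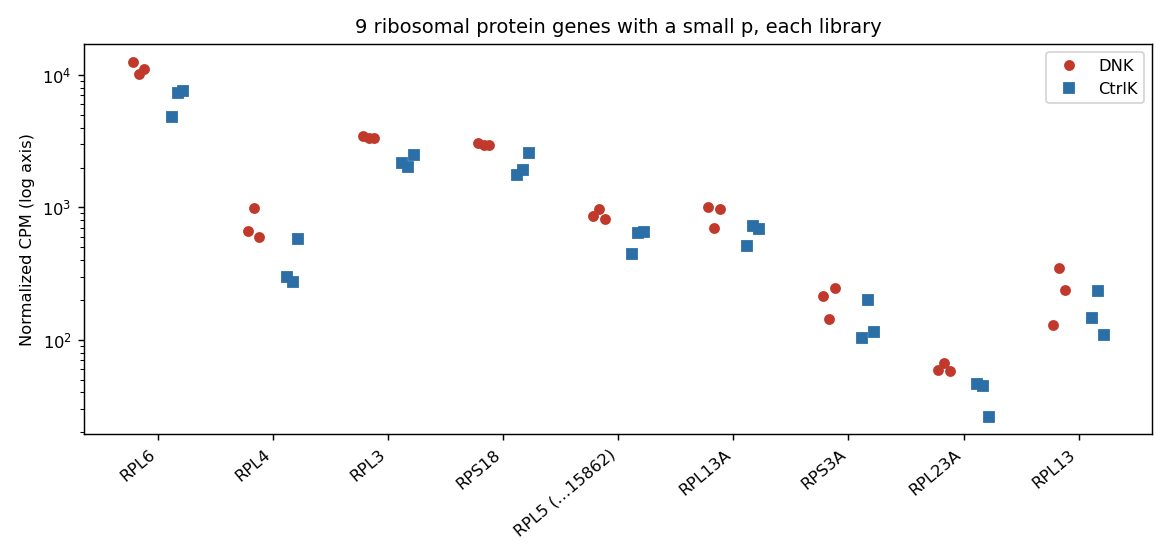
Normalized CPM (log axis) in each DNK library (red circles) and each CtrlK library (blue squares) for 9 members, in order of p. They have the smallest unadjusted p among tested members whose values are reported (0.00484 to 0.203 by edgeR). RPL6 shows DNK libraries at 10155 to 12596 and CtrlK libraries at 4817 to 7547. The DNK libraries lie above the CtrlK libraries without overlap for 6 of the 9 genes, which picking genes by p from the same libraries favours.

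Large and small subunit genes had nearly the same median fold change. The median log2 fold change was 0.30 over 26 large subunit genes and 0.32 over 18 small subunit genes, a difference of −0.02. It ranged from −0.14 without CtrlK replicate 2 to 0.05 without DNK replicate 2. Positive values made up 20 of 26 in the large and 14 of 18 in the small subunit, beside 46.9% of all tested genes. The spread among members was an SD of 0.36 for the large subunit and 0.50 for the small subunit. Over all 44 tested members the SD was 0.42, about the size of the median standard error of a single member (0.39), while all tested genes had an SD of 0.86 with a median standard error of 0.45. For 11 of the 44 members, among them RPL10A, RPL14, RPS2 and rps3, the 95% interval lay within a 2-fold change in either direction, and the intervals of the rest reached past it, so a change of that size could not be told from none for most members. Of 37 named members 14, RPL11, RPL8 and RPS13 among them, changed sign under at least 1 alternative. The log2 fold changes of these 14 lay between −0.21 (RPS21) and 0.24 (rps20). No subunit comparison was given a p, since the members share their libraries and are not replicates.

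Members held a larger share of gene counts in DNK, a gap that depended on RPL6. All members together held 2.82, 2.74 and 2.79% of gene counts in DNK replicates 1, 2 and 3, and 1.94, 2.44 and 2.62% in CtrlK replicates 1, 2 and 3, averaging 2.78% ± 0.0398 in DNK and 2.33% ± 0.352 in CtrlK (SD, n = 3 each). Every DNK library was above every CtrlK library, but the CtrlK libraries differed more among themselves than CtrlK replicate 3 did from DNK. Without RPL6 the shares were 1.70, 1.79 and 1.74% in DNK and 1.41, 1.65 and 1.82% in CtrlK, and the groups overlapped. Large subunit genes made up 77.8, 76.4 and 76.1% of subunit counts in DNK and 73.1, 75.6 and 73.1% in CtrlK. Without RPL6 this part was 63.2, 63.9 and 61.6% in DNK and 62.9, 63.9 and 61.4% in CtrlK, which overlapped nearly completely. Small subunit genes held 0.625, 0.647 and 0.666% of gene counts in DNK and 0.522, 0.595 and 0.704% in CtrlK.

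**Figure D5:**
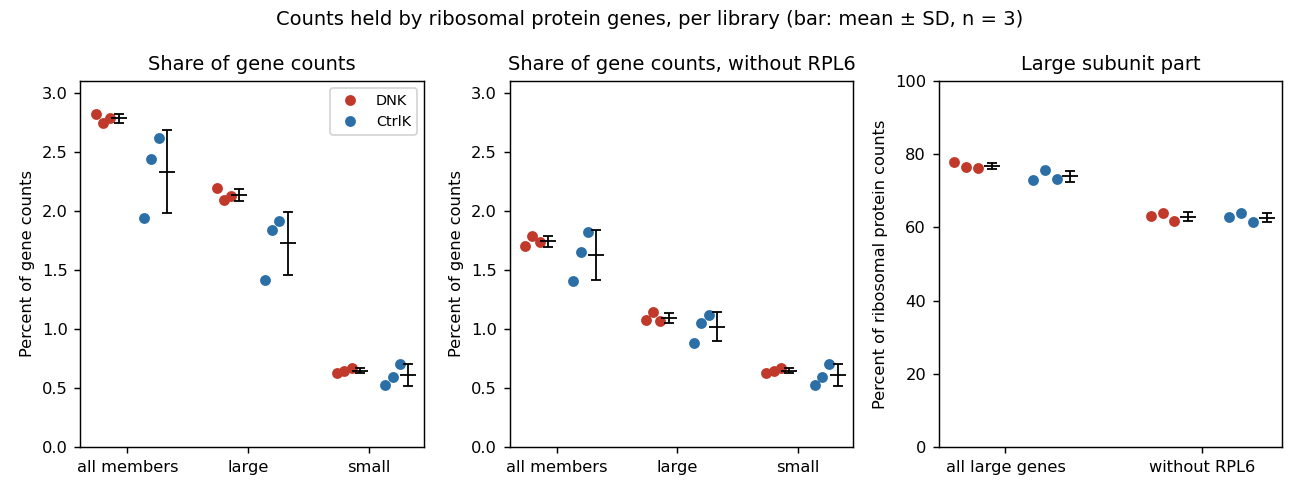
Left and middle, percent of gene counts held by all members, large subunit and small subunit genes in each DNK (red) and CtrlK (blue) library, with and without RPL6; right, the large subunit's percent of ribosomal protein counts. Black bars give the mean ± SD of 3 libraries, and the gap between the groups (2.78% in DNK, 2.33% in CtrlK for all members) closes to an overlap without RPL6.

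CtrlK replicate 1 was the low library for much of the family. Taking each tested member's log2 level relative to its mean over the 6 libraries, the median over members was 0.24, 0.22 and 0.13 in DNK replicates 1, 2 and 3, and −0.44, −0.13 and 0.07 in CtrlK replicates 1, 2 and 3. Of the 44 tested members, 22 had their lowest value in CtrlK replicate 1, which was also the library with the fewest gene counts. Its summed endothelial (1552 CPM, beside 1563 in CtrlK replicate 2), myeloid (678 CPM) and cardiomyocyte (2484 CPM) markers were the lowest of all libraries. Its lymphoid (497 CPM) and thrombocyte (864 CPM) markers were the highest of all libraries. Its fibroblast and mural markers (1413 CPM) were the highest in CtrlK. Without CtrlK replicate 1 the median log2 fold change was 0.20 (47 members tested) in place of 0.31 (44 members tested). The difference in the share of gene counts was then 0.254 percentage points in place of 0.450.

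The 39 members with too few counts went in both directions. On the same TMM scale as the tested genes they summed to 569, 565 and 613 normalized CPM in DNK and 528, 750 and 760 in CtrlK, and the groups overlapped. By counts over total gene counts, without TMM scaling, 15 of the 36 with any count were higher and 21 lower in DNK. They summed to 350 counts in DNK and 444 in CtrlK. Of these 36, 17 had a positive and 19 a negative log2 fold change in edgeR with no filter, where the median of all genes was 0.043. The 4 with the smallest p in that fit, and RPL28, RPS19 and RPS14, were picked after their values were seen. RPS16, whose tail reaches the tRNA in the small subunit, had 1, 0 and 3 counts in DNK and 7, 17 and 10 in CtrlK. Its ratio of summed counts, each over its group's total gene counts without TMM scaling, was 0.108 (95% counting interval 0.0279 to 0.303). RPL17, near the exit tunnel, had 4 counts in DNK and 21 in CtrlK (ratio 0.175, 95% counting interval 0.0437 to 0.519). RPS12 had 1, 0 and 4 counts in DNK and 0 in every CtrlK library, and RPL37 had 0 in every DNK library and 1, 4 and 1 in CtrlK. None of these 4 passed with no filter (adjusted p = 0.0595 to 0.417 by edgeR). RPL28 had 14 in DNK and 35 in CtrlK (0.367, 0.183 to 0.701). The ratios of RPL17 and RPL28 were also taken without TMM scaling. On the TMM scale, mean CPM in DNK and CtrlK were 6.89 and 52.0 for RPS16, 6.64 and 32.4 for RPL17, and 23.9 and 53.4 for RPL28. The counting intervals cover counting error only, since amplified reads without molecular identifiers are not independent molecules. RPS19, the gene first linked to Diamond-Blackfan anaemia, had 20 counts in DNK and 25 in CtrlK, and RPS14, lost in the human 5q- syndrome, 21 in DNK and 22 in CtrlK.

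Genes that work beside the ribosomal proteins gave some calls. Of 31 tested translation factor genes, 4 rose in DNK and 27 did not pass (median log2 fold change 0.63), where 4.72% of all tested genes rose. eef1a1l1, an elongation factor that brings aminoacyl-tRNA to the ribosome, had 5596, 4460 and 4520 CPM in DNK and 1397, 1818 and 2491 in CtrlK (1.35 ± 0.26, adjusted p = 0.00986). eif4a1a, an initiation helicase, rose by 1.02 ± 0.24, pabpc1a, a poly(A)-binding protein, by 1.64 ± 0.36, and EEF2, the translocation factor, by 2.20 ± 0.54 (adjusted p = 0.0223, 0.0159 and 0.0260 by edgeR). EEF2 had 168, 62.2 and 73.4 CPM in DNK and 20.7, 17.9 and 26.2 in CtrlK. Only its DNK libraries met the minimum of the filter, which favours a call of higher in DNK. With a library left out, eef1a1l1 passed in 6 of 6 fits, pabpc1a in 4, eif4a1a in 2 and EEF2 in 2. With limma-voom, EEF2 did not pass, while eef1a1l1, pabpc1a and eif4a1a did. Whether these genes differ from the ribosomal protein genes in their response was not tested. Of 10 tested genes whose products bind the ribosome, 2 rose and 8 did not pass (median 0.46), beside the same 4.72% of all tested genes. SERBP1, which occupies idle ribosomes, rose by 1.26 ± 0.34, and LTN1, a ubiquitin ligase for stalled chains, by 2.45 ± 0.69 (adjusted p = 0.0405 and 0.0450 by edgeR). Each passed in 1 of 6 fits with a library left out, SERBP1 without DNK replicate 3 and LTN1 without CtrlK replicate 2. Neither passed with limma-voom. LTN1 had 0 counts in CtrlK replicate 1 and 40.2 and 8.74 CPM in CtrlK replicates 2 and 3. It too met the filter only through its DNK libraries. RACK1, a scaffold on the small subunit, had 2395 ± 543 CPM in DNK and 1721 ± 291 in CtrlK (SD, n = 3 each; 0.48 ± 0.26, adjusted p = 0.267).

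Of 80 listed ribosome biogenesis IDs only 12 could be tested. Of these 12, 1 rose and 11 did not pass (median 0.08), where 4.72% of all tested genes rose (7.12% called in either direction). The one that rose was DDX21, a nucleolar RNA helicase, at 72.2 ± 24.5 CPM in DNK and 16.9 ± 4.40 in CtrlK (SD, n = 3 each), higher by 2.04 ± 0.57 on the log2 scale with an adjusted p of 0.0434 by edgeR. DDX21 passed in 0 of 6 fits with a library left out and in 5 of all 16 alternatives (adjusted p up to 0.218). DESeq2 and limma-voom were not among the 5. With 15.5, 13.4 and 21.8 CPM in CtrlK, DDX21 met the filter only through its DNK libraries. Of 10 tested genes of the mTOR and S6 kinase pathway, p53 and MYC, 0 passed by edgeR and 2 had an unadjusted p below 0.05 (median −0.33), where 24.8% of all tested genes had one. The smallest p values there were those of MYC (0.99 ± 0.37, adjusted p = 0.110) and akt1s1, an mTOR inhibitor (1.13 ± 0.47, adjusted p = 0.152), and MTOR itself was at −0.17 ± 0.46. Of 75 mitochondrial ribosomal protein IDs 2 could be tested, mrpl36 and MRPL12, at 0.77 ± 0.86 and −0.12 ± 0.37, and neither passed. Genes of the cytosolic ribosome outside the naming rule included FAU at 0.39 ± 0.44 and RPSA2 at 0.30 ± 0.31 (adjusted p = 0.619 and 0.568 by edgeR).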

How the data were processed

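The deposited tables hold raw counts per Ensembl gene, 1 table for each of 6 libraries. RNA of sorted cells was amplified by the MALBAC method, per the labels' protocols. Tools listed, per the submitters' processing notes, were DESeq2 1.22.2, HTSeq 0.6.1, HISAT2 2.1.0 and Trim Galore 0.6.0, with no role or order, and the build was GRCz11. The sources used here give no strand setting, quality minimum or annotation release, so antisense, overlapping and near-identical genes can share or lose reads. The 5 rows that name no gene held 98.5% ± 0.00638 of each DNK table and 98.8% ± 0.108 of each CtrlK table (SD, n = 3 each) and were left out.

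Genes kept by filterByExpr went into edgeR's quasi-likelihood test (version 4.0.16 in R 4.3.3, robust = TRUE, TMM scaling), with calls below 0.05 after Benjamini-Hochberg adjustment. SE is the absolute log2 fold change over the square root of F, and 95% intervals use the test's degrees of freedom without adjustment. Normalized CPM are per 1000000 TMM-scaled gene counts, not length-scaled. Log2 levels per library add 1 CPM, ratios of copies 0.5 counts. Shares and medians over members are descriptions with no test. The steps were tested on simulated data with 200 changed genes. Among tested genes they recovered 20.0% of 2-fold and 90.9% of 4-fold changes, and 6 of 103 calls were unchanged genes. The simulation gave every gene the same coefficient of variation between libraries, 0.33, and held no outlying library. These rates may therefore differ from those in the real libraries.

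Other settings tried were upper-quartile and RLE factors, library size alone, scaling without the members, no filter, a filter of 50 counts over all libraries, DESeq2 1.42.0, limma-voom (limma 3.58.1), robust = FALSE, the replicate number as a block, and each library left out. Named members are, per subunit, the 5 most abundant, the 4 with the smallest p, the 3 most positive and 3 most negative, copies under 1 name and members of role groups; from other lists, up to 4 called genes or the 2 with the smallest p, and not every such gene is printed. Members named outside this rule, and FAU, RPSA2, RACK1, mdm2 and MTOR, were chosen after their values were seen. Members and lists were chosen with earlier results of these data known. Values of some members are not reported here. No sequences or coordinates were used here. Pairs of libraries differed by more than sampling noise (chi-square per degree of freedom 3.08 to 9.18).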

Additional observations from a re-analysis of the deposited data

How the results depend on the processing

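Leaving out 1 library moved the count of called genes to between 89 (without DNK replicate 1) and 277 (without CtrlK replicate 3), against 270, with 160, 104, 136 and 159 without CtrlK replicates 1 and 2 and DNK replicates 2 and 3. The filter was run anew each time, so 4246 to 4456 genes and 45 to 47 members were tested, against 3792 and 44. The count of called ribosomal protein genes was 1 with DESeq2, 1 with limma-voom and 0 to 2 with a library left out. Their median log2 fold change was 0.088 with library size alone, which moved the median of all tested genes to −0.30, and 0.20 to 0.46 with a library left out. Relative to the median of all tested genes it was 0.38, and 0.21 to 0.49 over the 16 alternatives. The difference between the subunit medians was −0.14 to 0.053 with a library left out. Without RPL6 the DNK minus CtrlK difference was 0.116 percentage points for the share of gene counts and 0.220 for the large subunit's part, against 0.450 and 2.87.

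Of 37 named members, 23 kept their direction under all alternatives tried and 14 did not. With library size alone, log2 fold changes turned to −0.086 (RPL10A), −0.16 (RPL11), −0.21 (RPL5 ENSDARG00000020197), −0.16 (RPL8), −0.11 (RPS13) and −0.14 (RPS15). RPL12 turned to 0.00925 with no filter, and with limma-voom RPL38 turned to 0.019 and RPS13 to −0.00171. With a library left out the ranges were −0.51 to 0.25 (RPL10), −0.071 to 0.28 (RPL11), −0.23 to 0.052 (RPL12), −0.40 to 0.0045 (RPL31), −0.49 to 0.49 (RPL38), −0.090 to 0.14 (RPL5 ENSDARG00000020197), −0.47 to 0.48 (RPL7), −0.042 to 0.35 (RPL8), −0.27 to 0.89 (RPS13), −0.056 to 0.30 (RPS15), −0.56 to 0.23 (RPS21), −0.24 to 0.075 (RPS24) and −0.026 to 0.55 (rps20). Outside the family, mrpl36 turned to −0.11 with limma-voom, and with a library left out MRPL12 was −0.30 to 0.13 and MTOR −0.44 to 0.16. The cause was not tested.

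Same-numbered libraries did not deviate together (correlations of −0.10, −0.0065 and −0.035 over genes), so the replicate numbers were not taken as pairs, and with the replicate block 252 genes and 0 ribosomal protein genes were called. The intervals of most single members reached past a 2-fold change; the parts of counting error and of spread between libraries in this were not separated.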
